A study of Mus musculus with 12 samples.

Results

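A set of 10 genes of outer segment uptake was followed with age in RPE, the retinal pigment epithelium, which lies behind the photoreceptors and nourishes them. They were chosen by name, as the rows whose Entrez gene ID maps to Mertk, Tyro3, Axl, Gas6, Pros1, Itgav, Itgb5, Mfge8, Cd36 or Ptk2, and make up 10 of the 27179 genes in the tables. Stranded total RNA libraries were made from RPE sheets of wild-type male C57BL/6J mice, 1 library per eye. The 22-month group had 3 mice and 6 libraries, and so did the 5-month group, with mice 1 and 2 of each age in batch 1 and mouse 3 of each age in batch 2. The sheets had been shaken loose from eyecups after enzyme digestion and removal of the retina, so the libraries hold whatever else came away with them. The question was how the receptors and ligands of uptake differed between old and young RPE.

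Photoreceptors shed the tips of their outer segments every day, and the RPE engulfs them. Shed tips expose phosphatidylserine, which is bridged to the RPE surface by soluble ligands. MFG-E8, the product of Mfge8, links phosphatidylserine to the integrin of the alpha v chain (Itgav) and the beta 5 chain (Itgb5), which binds the tips and signals through focal adhesion kinase (Ptk2) to MerTK. MerTK, a receptor tyrosine kinase of the TAM family with Tyro3 and Axl, drives engulfment and is activated by Gas6 and by protein S, the product of Pros1. Cd36, a scavenger receptor, has been linked to the rate of internalization. Loss of Mertk leaves shed outer segments uneaten and leads to photoreceptor death in rats and mice.

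A library held 9171131 to 12324029 raw counts in the 22-month group and 9758665 to 13217909 in the 5-month group. The counts of both eyes of a mouse were added, since the eyes are not independent, so n = 3 mice per age. Values are given as CPM, counts scaled to a common library total by the trimmed-mean (TMM) factors of edgeR. All 14 RPE markers on a list were detected in every mouse. Their summed level was 10523 to 28010 CPM in the 22-month mice and 22581 to 34532 CPM in the 5-month mice. Of the 14, 3 (Pmel, Tyrp1, Mlana) were called lower and 0 higher, against 2.26% and 5.41% of all tested genes. At an unadjusted p under 0.05 by edgeR, 11 of the 14 were lower, against 14.6% of all tested genes. Their median log2 fold change was -0.68. Rod markers summed to 2888 to 16526 CPM in the 22-month mice and 1605 to 3840 CPM in the 5-month mice, with 11 of 12 called higher. Macrophage and microglia markers summed to 3896 to 4939 CPM in the 22-month mice and 1640 to 3951 CPM in the 5-month mice, with 2 of 12 called higher (Cx3cr1, Ptprc). At an unadjusted p under 0.05 by edgeR, 11 of these 12 were higher, against 2340 of all 14219 tested genes. The median log2 fold change of the 12 was 0.62. Melanocyte markers summed to 408 to 511 CPM in the 22-month mice and 794 to 910 CPM in the 5-month mice, with 2 of 4 called lower (Ednrb, Sox10). Of the other lists, 1 of 8 pericyte and smooth muscle markers (Pdgfrb) and 1 of 7 Mueller glia markers (Aqp4) were called higher, and 0 of 10 endothelial, 0 of 6 fibroblast and 0 of 3 tested platelet markers were called by edgeR. No tested marker on these 9 lists was at 0 in any mouse. In these bulk libraries, fewer cells of a type and less RNA per cell cannot be told apart.

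Of the 3 ligands, Mfge8 and Gas6 were higher at 22 months and Pros1 was not called, and no receptor was called in either direction. All 10 genes passed the filter on low values, at 431 (Tyro3) to 13395 (Itgav) raw counts in a library. By the quasi-likelihood test of edgeR, with a batch term, a call needed a Benjamini-Hochberg adjusted p under 0.05 over all 14219 tested genes and a log2 fold change beyond 0.25. Of the 10 genes, 2 were called higher, against 5.41% of all tested genes, and 0 were called lower, against 2.26%. At an unadjusted p under 0.05, 2 were lower (Itgav and Mertk), against 14.6% of all tested genes. DESeq2 on the same mouse sums called 1 lower (Itgav), against 6.07% of all tested genes. The median log2 fold change of the 10 was -0.02, and that of all tested genes was -0.01. The plot of CPM by eye shows each gene in every library.

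**Figure D1:**
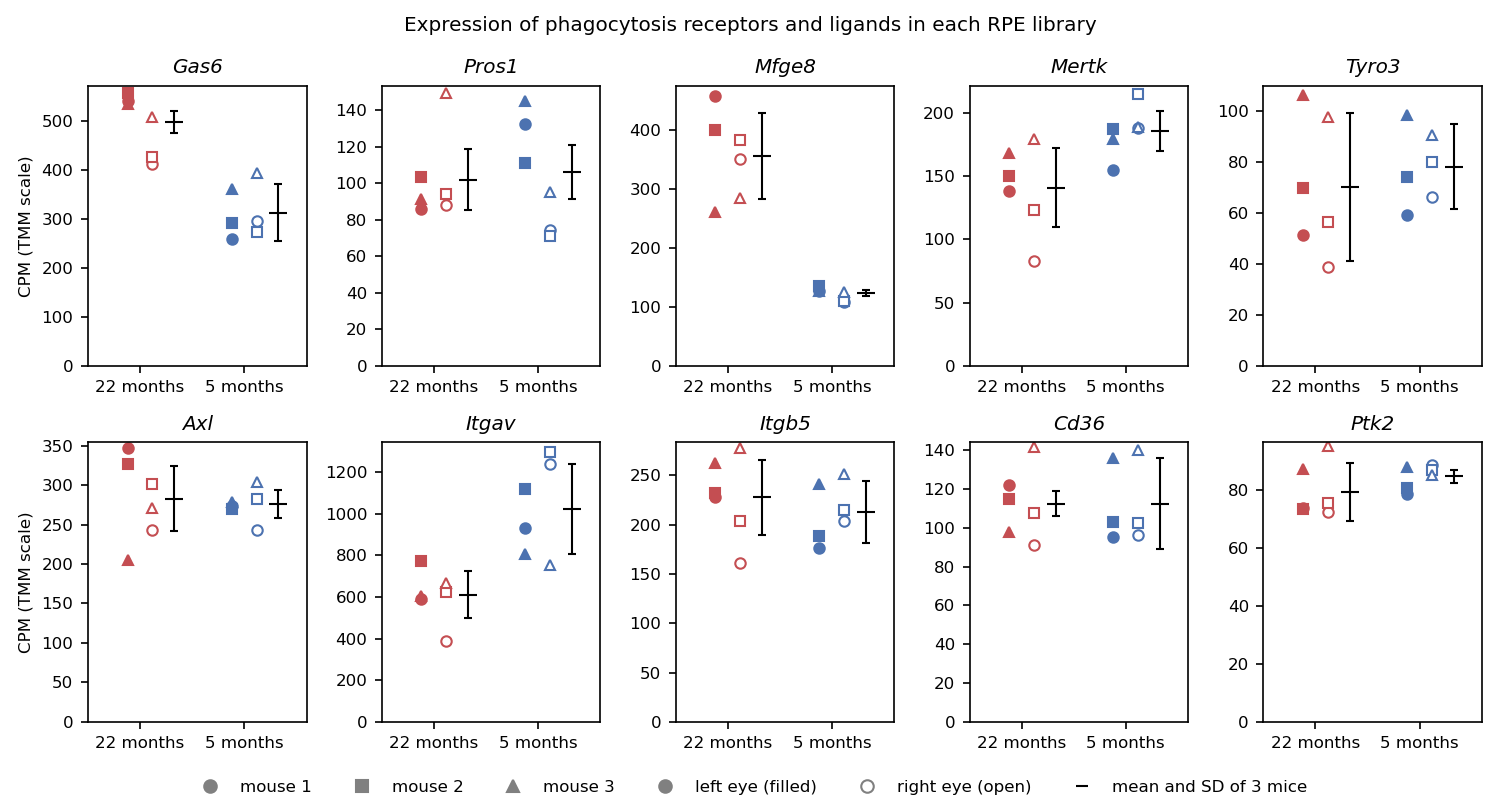
CPM (vertical axis, from 0) of each gene in the 12 libraries, with 22 months left of 5 months in each panel. Filled symbols are left eyes, open symbols right eyes, shapes are mice, and the bar is the mean and SD of 3 mice. Mfge8 lies at 261 to 457 CPM in 22-month and 108 to 135 CPM in 5-month libraries, and Gas6 at 413 to 557 CPM in 22-month and 259 to 394 CPM in 5-month libraries, with no overlap.

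Mfge8 had the largest rise of the 10. It stood at 402, 394 and 272 CPM in the 22-month mice, against 118, 123 and 128 CPM in the 5-month mice. All 3 old mice lay above all 3 young ones, as was so for 6.19% of tested genes in this direction, and mouse 3 was the lowest of the old. The log2 fold change was 1.51 (standard error, SE, 0.14, adjusted p = 0.0195 by edgeR), a fold of 2.86. It was 1.73 in batch 1 and 1.09 between the 2 mice of batch 2. With the rod score as a covariate, the mean log2 CPM of the rod markers in a library, the log2 fold change was 1.42 (adjusted p = 0.0021 by edgeR). This model, like the others with a marker score below, took each eye as a sample with no term for the mouse, so its p-value treats eyes of 1 mouse as independent. With the macrophage score in that place it was 1.12 (adjusted p = 0.0030 by edgeR). The call was lost without 22-month mouse 1 (adjusted p = 0.0894), 22-month mouse 2 (adjusted p = 0.0855) or 5-month mouse 2 (adjusted p = 0.0504), by edgeR in each case. The log2 fold change of Mfge8 was 1.45, 1.47 and 1.46 in these settings. Over all tested genes they called 4, 1 and 104, against 1090 with all mice. In right eyes alone the log2 fold change was 1.55 (adjusted p = 0.0537 by edgeR), with 12 calls over all tested genes. In left eyes alone it was 1.49 (adjusted p = 0.0193 by edgeR), with 178 such calls.

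Gas6, whose product binds the TAM receptors once its glutamate-rich domain has been carboxylated, stood at 475, 502 and 520 CPM in the 22-month mice, against 275, 284 and 381 CPM in the 5-month mice. The ages did not overlap, and the highest young mouse was that of batch 2. The log2 fold change was 0.69 (SE 0.10, adjusted p = 0.0280 by edgeR), a fold of 1.61. It was 0.81 in batch 1 and 0.45 between the mice of batch 2. With the RPE score as a covariate, the mean log2 CPM of the RPE markers, the log2 fold change was 0.80 (adjusted p = 0.0375 by edgeR). With the macrophage score it was 0.39 and missed the threshold (adjusted p = 0.0646 by edgeR). The call was also lost without 22-month mouse 1 (adjusted p = 0.113), 22-month mouse 2 (adjusted p = 0.110), 5-month mouse 1 (adjusted p = 0.0828) or 5-month mouse 2 (adjusted p = 0.101), by edgeR in each case. The log2 fold change of Gas6 was 0.68, 0.63, 0.64 and 0.66 in these settings. Over all tested genes they called 4, 1, 407 and 104, against 1090 with all mice. Gas6 shares 34 of its 2548 exon bases with Tmem255b on the other strand.

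The start regions of the 2 genes that rose are shown beside that of Itgav, the integrin chain with the largest downward value. Each runs over the 250 bases before an annotated start site on GRCm38.p6, read 5′ to 3′ on the strand of the gene. Capitals mark GC boxes (GGGCGG on either strand, the letters bound by Sp1-type factors). Mfge8 lies at chr7:79149061-79149310 on the minus strand, Gas6 at chr8:13494536-13494785 on the minus strand and Itgav at chr2:83724147-83724396 on the plus strand. The Itgav window lies inside the RefSeq span of the gene, which begins at chr2:83722303, so it precedes a later start site.
Mfge8: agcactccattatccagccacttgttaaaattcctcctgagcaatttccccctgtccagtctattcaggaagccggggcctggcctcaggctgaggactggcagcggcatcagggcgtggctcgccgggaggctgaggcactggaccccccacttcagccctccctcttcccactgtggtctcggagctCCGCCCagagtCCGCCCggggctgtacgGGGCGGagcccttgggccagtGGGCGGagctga
Gas6: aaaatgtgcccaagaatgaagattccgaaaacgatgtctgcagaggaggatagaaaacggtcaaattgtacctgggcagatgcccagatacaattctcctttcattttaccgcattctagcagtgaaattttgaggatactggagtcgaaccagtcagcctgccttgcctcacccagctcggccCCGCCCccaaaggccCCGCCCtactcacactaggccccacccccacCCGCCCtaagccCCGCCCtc
Itgav: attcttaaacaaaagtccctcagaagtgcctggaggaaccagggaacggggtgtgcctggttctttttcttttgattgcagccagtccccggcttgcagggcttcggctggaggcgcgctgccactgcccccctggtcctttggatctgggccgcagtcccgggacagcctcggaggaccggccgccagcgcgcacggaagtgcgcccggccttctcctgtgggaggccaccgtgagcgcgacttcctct
Mfge8 and Gas6 held 4 GC boxes each and Itgav held 0. Of the members that were not called, Pros1 held 5, Mertk, Tyro3 and Itgb5 3 each, Cd36 2 and Axl 1, counting overlapping matches. A GC box stood in the same window of 8 of the 9 members with an entry, and in 32.7% of 32851 promoters. The start sites used for Tyro3, Axl and Cd36 also lie inside their RefSeq spans, so motif counts depend on the start site taken. CACGTG and CATGTG, the core letters bound by Mitf and related factors, were in 0 of the 9, against 6.02% and 12.3% of all promoters. A CCAAT box was in 1 of the 9 (Cd36), against 33.8%, and TATAAA was in 0 of the 9, against 12.4%. All motifs were searched on both strands, and no 2 of these motifs contain each other.

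Pros1, which encodes protein S, the other ligand of MerTK, was not called, and its age difference had opposite signs in left and right eyes. It stood at 86.3, 99.7 and 120 CPM in the 22-month mice, against 106, 91.6 and 121 CPM in the 5-month mice. The groups overlapped, with a log2 fold change of -0.06 (SE 0.09, adjusted p = 0.677 by edgeR). In the young mice the left eye was higher in all 3, at 133, 111 and 145 CPM in left eyes and 74.3, 71.1 and 95.2 CPM in right eyes. Their rod score was also higher in each left eye, at 7.65, 7.55 and 6.70 against 6.13, 4.90 and 4.86 in right eyes. In the old mice the left eyes held 85.8, 104 and 91.4 CPM and the right eyes 88.2, 94.0 and 149 CPM, with no common order. Rod scores of the old mice were 7.97, 8.69 and 7.51 in left eyes and 9.74, 8.825 and 6.03 in right eyes. Among them, the eye with more Pros1 had the higher rod score in mouse 1 and the lower one in mice 2 and 3. The part of rod RNA in the eye difference of Pros1 was not tested. The age difference was -0.46 on the log2 scale in left eyes (adjusted p = 0.123) and 0.43 in right eyes (adjusted p = 0.0834), both by edgeR and neither past the threshold. A test of age by eye, with each mouse as a block and added after the values were seen, gave 0.90 (SE 0.22, unadjusted p = 0.0042, adjusted p = 0.129 by edgeR). At an unadjusted p under 0.05 this term took in 4 of the 10 genes (Mertk, Tyro3, Gas6, Pros1), against 19.1% of all tested genes, and 8 of the 14219 genes passed an adjusted p under 0.05.

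None of the 3 TAM receptors was called. Mertk, the receptor that drives engulfment, stood at 111, 139 and 173 CPM in the 22-month mice, against 170, 201 and 186 CPM in the 5-month mice. Old mice 1 and 2 lay under all young mice, and old mouse 3 lay between the young ones. The log2 fold change was -0.42 (SE 0.15, adjusted p = 0.127 by edgeR). It was -0.57 in batch 1 and -0.10 between the mice of batch 2. The lowest library was the right eye of 22-month mouse 1, at 82.9 CPM, which also had the highest rod score of the 12 (9.74) and the lowest RPE score (7.86). Its left eye had 139 CPM.

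Tyro3, a TAM receptor that the RPE also carries, stood at 44.8, 64.0 and 102 CPM in the 22-month mice, against 62.3, 77.1 and 95.4 CPM in the 5-month mice. The mice of batch 2 were the highest of each age, and the log2 fold change was -0.20 (SE 0.18, adjusted p = 0.461 by edgeR). Axl, the third TAM receptor, which prefers Gas6 as its ligand, stood at 294, 317 and 237 CPM in the 22-month mice, against 259, 276 and 294 CPM in the 5-month mice. The order of the ages was opposite in the batches, at 0.19 on the log2 scale in batch 1 and -0.31 between the mice of batch 2. Over all mice the log2 fold change was 0.03 (SE 0.12, adjusted p = 0.903 by edgeR).

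Of the integrin chains, Itgav had the lower values in old mice and the age difference in Itgb5 was within the spread of the mice. Itgav, whose alpha v chain pairs with several beta chains, stood at 489, 711 and 633 CPM in the 22-month mice, against 1070, 1208 and 787 CPM in the 5-month mice. The mice of the ages did not overlap, as was so for 6.6% of tested genes in this direction. The log2 fold change was -0.72 (SE 0.20), a fold of 0.606, which missed the threshold (adjusted p = 0.0793 by edgeR). DESeq2 on the same sums called it (adjusted p = 0.0030), as did edgeR in batch 1 alone (log2 fold change -0.92, adjusted p = 0.0376). Leaving out mouse 3 of the 22-month group (adjusted p = 0.0359 by edgeR) or of the 5-month group (adjusted p = 0.0366 by edgeR) is the batch 1 comparison again, since the batch term takes up the mouse that remains in batch 2. When the 3 libraries with the most extreme rod scores were left out, it was called at -0.62 (adjusted p = 0.0437 by edgeR). With the rod score as a covariate it was -0.42 (adjusted p = 0.322), and with the RPE score -0.03 (adjusted p = 0.918), both by edgeR. Of its exon bases, 5.9% lie under Gm13684 on the other strand. The strand setting of the counting is not given in the sources used here.

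Itgb5, which pairs only with alpha v, stood at 193, 221 and 269 CPM in the 22-month mice, against 189, 202 and 249 CPM in the 5-month mice. The mouse of batch 2 was the highest of each age, and the log2 fold change was 0.09 (SE 0.08, adjusted p = 0.453 by edgeR). In the models over single eyes it was 0.41 with the RPE score, past the threshold (adjusted p = 0.0442 by edgeR), and -0.11 with the macrophage score (adjusted p = 0.620 by edgeR).

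Cd36 and Ptk2 overlapped between the ages. Cd36, the scavenger receptor, stood at 106, 112 and 119 CPM in the 22-month mice, against 95.4, 103 and 139 CPM in the 5-month mice, with a log2 fold change of 0.02 (SE 0.10, adjusted p = 0.927 by edgeR). Ptk2, the kinase between the integrin and MerTK, stood at 72.5, 74.5 and 91.0 CPM in the 22-month mice, against 83.1, 84.1 and 87.4 CPM in the 5-month mice. Its log2 fold change was -0.10 (SE 0.07, adjusted p = 0.380 by edgeR), with old mouse 3 above all young mice and the other old mice under them.

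Among libraries of 1 age and batch, the receptors differed in the marker score with which their r was highest. These are correlations of log2 CPM over 12 libraries after centring by age and batch, given as descriptions. The libraries share mice, and values share the scaling of each library. Mertk (0.98), Itgav (0.96), Itgb5 (0.95) and Tyro3 (0.92) had their highest r with the RPE score, though Mertk and Itgb5 also reached 0.79 and 0.80 with the macrophage score. Axl (0.97) and Cd36 (0.93) had theirs with the macrophage score, and their r with the RPE score was 0.62 and 0.54. Gas6 lay between, with 0.73 for the RPE score and 0.64 for the macrophage score. Mfge8 had 0.28 and 0.68, Pros1 had -0.17 and 0.19, and Ptk2 had 0.36 and 0.24. With the rod score, r was -0.64 for Mertk, -0.53 for Itgav, -0.71 for Itgb5 and -0.32 for Tyro3. It was -0.58 for both Axl and Cd36, -0.35 for Gas6, -0.64 for Ptk2, 0.0985 for Mfge8 and 0.51 for Pros1. The right eye of 22-month mouse 1 had the lowest RPE score (7.86) and the highest rod score (9.74) of the 12 libraries. Values of r without that library were not computed. None of the 10 genes is on a marker list.

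The macrophage score itself was 5.93 to 6.95 in the 22-month libraries, with a median of 6.50, and 5.38 to 6.58 in the 5-month libraries, with a median of 5.57. With it as a covariate, a setting added after the values were seen, Axl had a log2 fold change of -0.47 (adjusted p = 0.0096 by edgeR) and Cd36 one of -0.41 (adjusted p = 0.0202 by edgeR). Both passed the threshold there, with 12 eyes of 6 mice taken as samples, and in no other setting. The RPE score was 7.86 to 9.31 in the 22-month libraries and 8.91 to 9.61 in the 5-month libraries. With it as a covariate Mertk had a log2 fold change of 0.20 (adjusted p = 0.178 by edgeR) and Tyro3 one of 0.36 (adjusted p = 0.117 by edgeR). The part of these cell types in the age differences was not tested. The plot of age differences by setting places these values side by side.

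**Figure D2:**
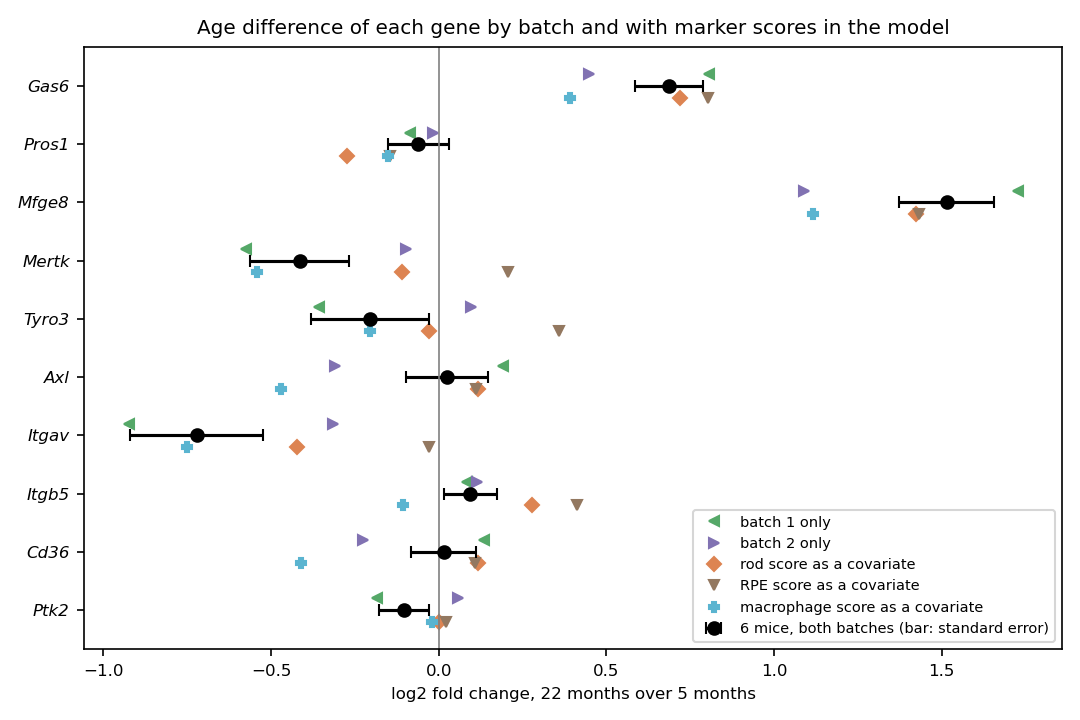
Log2 fold change of 22 over 5 months (horizontal axis) of each gene from all 6 mice (black, bar: SE), within each batch, and in eye-level models with a rod, RPE or macrophage score. Mfge8 (1.09 to 1.73) and Gas6 (0.39 to 0.81) lie right of 0 in each of these, while the values of Mertk, Tyro3, Axl, Itgb5, Cd36 and Ptk2 fall on both sides of 0.

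Levels of different genes were compared per length, as CPM per kb of exon. Gas6 ranked first at both ages, at 196 ± 8.90 per kb in the 22-month mice and 123 ± 23.1 per kb in the 5-month mice (SD, n = 3 each). Mfge8 ranked 2 of 10 at 22 months, at 75.8 ± 15.5 per kb, and 7 of 10 at 5 months, at 26.1 ± 1.04 per kb (SD, n = 3 each). Itgav ranked 4 at 22 months and 2 at 5 months. Mertk stood at 32.5 ± 7.27 per kb in the 22-month mice and 42.8 ± 3.60 per kb in the 5-month mice (SD, n = 3 each), below Axl at both ages in all mice. Tyro3 and Ptk2 had the lowest levels per length at both ages.

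Some neighbours in this order changed places between mice. At 22 months these were Mfge8 and Itgb5, Itgb5 and Itgav, Itgav and Axl, and Mertk and Cd36. At 5 months they were Gas6 and Itgav, and Mfge8 and Pros1. The ranges of Tyro3 and Ptk2 at 22 months, and of Itgb5 and Axl and of Cd36 and Mfge8 at 5 months, overlapped, but the first of each pair was the higher in all 3 mice. The plot of level per length gives the order with its ranges.

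**Figure D3:**
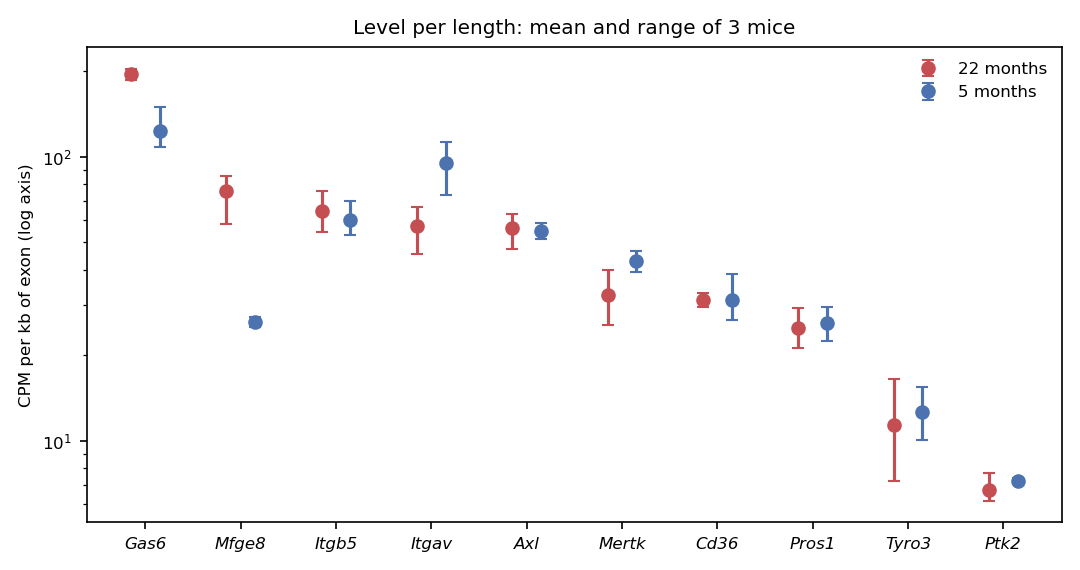
CPM per kb of exon on a log axis for each gene, ordered by the 22-month level, as the mean and range of 3 mice, with 22 months left of 5 months. Mfge8 shows the widest gap between the ages, at 57.9 to 85.6 per kb at 22 months and 25.1 to 27.2 per kb at 5 months.

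In ratios within a mouse the scaling of its library cancels, apart from the prior count. The log2 ratio of Mfge8 to Itgav, ligand to receptor chain, was -0.28, -0.85 and -1.22 in the 22-month mice, against -3.18, -3.30 and -2.62 in the 5-month mice. The ages were apart by 2.25 on the log2 scale, or 4.76-fold, with 2.67 in batch 1 and 1.40 in batch 2. The log2 ratio of Gas6 to Mertk was 2.10, 1.85 and 1.58 in the 22-month mice, against 0.69, 0.49 and 1.04 in the 5-month mice, apart by 1.10 or 2.15-fold. The log2 ratio of Gas6 to Pros1, between the ligands of MerTK, was 2.46, 2.33 and 2.12 in the 22-month mice, against 1.38, 1.63 and 1.65 in the 5-month mice. Itgav to Itgb5, between the chains of the integrin, overlapped, at 1.34, 1.69 and 1.23 in the 22-month mice, against 2.50, 2.58 and 1.66 in the 5-month mice. Within batches it was lower in the old mice, with log2 differences of -1.03 in batch 1 and -0.43 in batch 2.

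Relative to the mean log2 CPM of the RPE markers, the ages were apart for Itgb5, Gas6 and Mfge8 and overlapped for Mertk and Itgav. Mertk was at -1.46, -1.48 and -1.84 in the 22-month mice, against -1.63, -1.58 and -2.06 in the 5-month mice. It overlapped over both batches, and was higher in the old mice within each, by 0.14 in batch 1 and 0.22 in batch 2. Itgav to the RPE markers differed by -0.16, with -0.23 in batch 1 and 0.0026 in batch 2. Itgb5 was higher by 0.67 on this scale, Gas6 by 1.27 and Mfge8 by 2.09, each with the ages apart. The RPE markers themselves had a median log2 fold change of -0.68, so a gene with no change of its own rises on this scale. Without that reference, the log2 fold change of Itgb5 was 0.09. Of the 11 ratios compared, 8 had the ages apart and reached an exact two-sided permutation p of 0.1, the smallest that 3 mice against 3 allow, which is 0.138 after Benjamini-Hochberg adjustment over the 11. None could pass 0.05 in this design, and the permutation pools the batches. The plot of ratios gives each mouse.

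**Figure D4:**
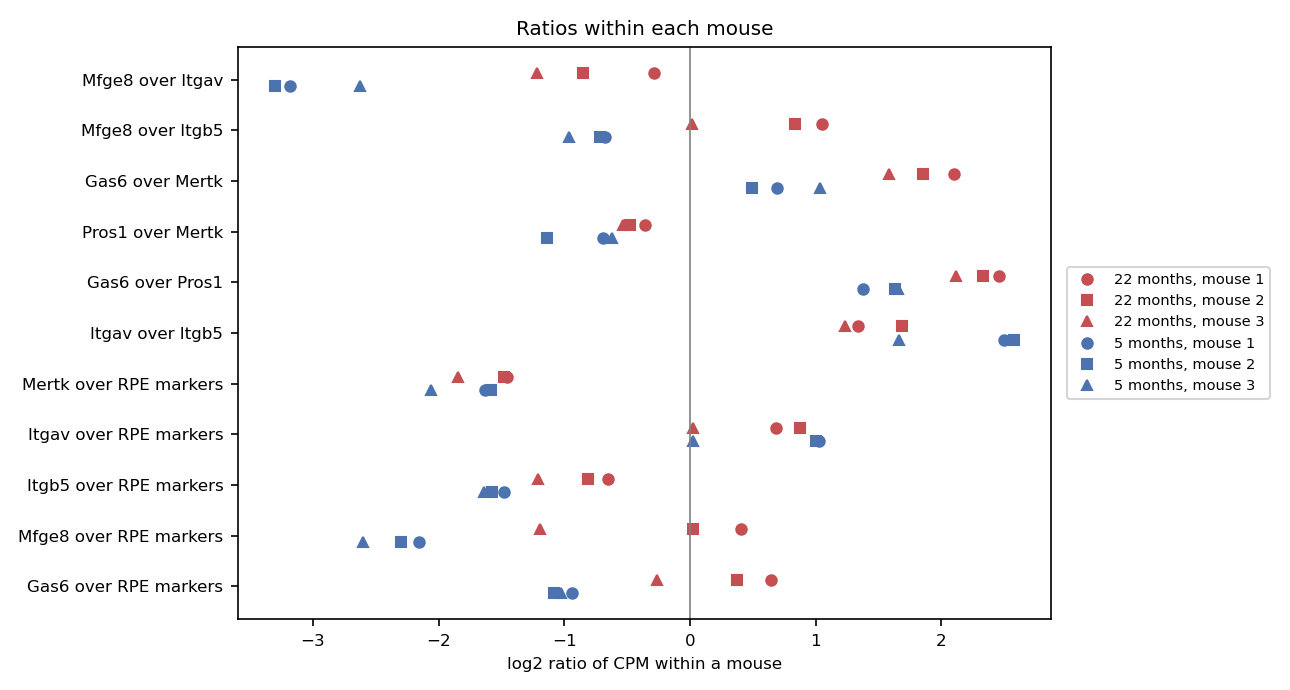
Log2 ratio of CPM within a mouse (horizontal axis) for 11 pairs, with the 3 mice of 22 months drawn above the 3 of 5 months and shapes for mice. The ages are apart in 8 pairs, and overlap in Itgav over Itgb5, Mertk over RPE markers and Itgav over RPE markers.

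The genes most like Mertk, Itgb5 and Gas6 over the 12 libraries, by Pearson's r of batch-centred log2 CPM, are given as a description. For Mertk they were Efcab14 (0.99), Phgdh (0.99) and Tnfrsf10b (0.99), with log2 fold changes of -0.40, -0.60 and -0.58. For Itgb5 they were Tmem86a (0.94), Ddost (0.93) and Cpxm2 (0.92), with log2 fold changes of 0.07, 0.03 and 0.05. For Gas6 they were Il7r (0.96), Chil1 (0.96) and Adora1 (0.96), with log2 fold changes of 1.54, 1.51 and 0.73. Centring by batch alone keeps the age difference in these profiles. That the fold changes have the direction of the gene matched thus follows from the choice.

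Beyond the 10 genes, 84 tested genes of 4 pathway lists held 6 called higher and 1 called lower, near the shares of all tested genes (5.41% higher and 2.26% lower) and with a median log2 fold change of -0.07. Of 22 tested genes for other receptors, integrin partners and bridging molecules, 4 were called higher, against 5.41% of all tested genes, and 0 lower, with a median of 0.03. They were Vtn, which encodes vitronectin, a ligand of alpha v integrins, Tub and Tulp1, whose tubby proteins have been described as bridging ligands of MerTK, and Adgrb1, the phosphatidylserine receptor BAI1. Tulp1 stood at 248, 187 and 50.4 CPM in the 22-month mice, against 58.2, 45.6 and 28.0 CPM in the 5-month mice, a log2 fold change of 1.68 (SE 0.28, adjusted p = 0.0344 by edgeR). The ages overlapped, since old mouse 3 lay under young mouse 1. Vtn stood at 214, 167 and 86.6 CPM in the 22-month mice, against 68.6, 61.2 and 44.3 CPM in the 5-month mice (log2 fold change 1.36, SE 0.16, adjusted p = 0.0226 by edgeR).

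With the rod score as a covariate, the log2 fold changes of these 4 genes were 0.16 (Vtn), 0.39 (Tub), 0.08 (Tulp1) and 0.29 (Adgrb1), and none was called. Tulp1 is also known as a photoreceptor gene, and the part of rod RNA in these differences was not tested.

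Of 33 genes for the signalling and cytoskeleton of engulfment, 1 was called higher and 1 lower, against 5.41% and 2.26% of all tested genes, with a median of -0.08. Ptk2b, which encodes Pyk2, the kinase related to focal adhesion kinase, stood at 31.8, 31.8 and 29.6 CPM in the 22-month mice, against 16.5, 13.8 and 21.8 CPM in the 5-month mice. Its log2 fold change was 0.86 (SE 0.15, adjusted p = 0.0372 by edgeR), and 0.95 with the rod score (adjusted p = 0.0534 by edgeR). Pik3r1, the regulatory subunit of phosphoinositide 3-kinase, had a log2 fold change of -0.42 (SE 0.08, adjusted p = 0.0425 by edgeR). It stood at 280, 316 and 170 CPM in the 22-month mice, against 382, 391 and 242 CPM in the 5-month mice, lower within each batch. With the rod score it was -0.36 and was not called (adjusted p = 0.0600 by edgeR).

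Of 20 genes for phagosome maturation, 1 was called higher, against 5.41% of all tested genes, and 0 lower, with a median of -0.11. Ctss, which encodes the lysosomal protease cathepsin S, abundant in macrophages, stood at 851, 863 and 1179 CPM in the 22-month mice, against 306, 336 and 796 CPM in the 5-month mice. Its log2 fold change was 1.13 (SE 0.19, adjusted p = 0.0332 by edgeR), and 1.31 with the rod score (adjusted p = 0.0246 by edgeR). Of 9 genes for the carboxylation of Gas6 and protein S, receptor shedding and feedback, 0 were called by edgeR, with 2 lower at an unadjusted p under 0.05, against 14.6% of all tested genes, and a median of -0.07. DESeq2 on mouse sums also called 0 of them. Adam10, a sheddase, had a log2 fold change of -0.23 (SE 0.07, adjusted p = 0.103 by edgeR) and Furin, a proprotein convertase, one of -0.27 (SE 0.10, adjusted p = 0.128 by edgeR).

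The calls on the pathway lists depended on which mice entered. Of the 7, 0 were called without 22-month mouse 1 or 22-month mouse 2, 2 without 5-month mouse 1 (Tub, Vtn) and 1 without 5-month mouse 2 (Tub). Calls fell over all tested genes too, from 1090 to 4 without 22-month mouse 1 and to 1 without 22-month mouse 2. They fell to 407 without 5-month mouse 1 and to 104 without 5-month mouse 2. Leaving out mouse 3 of the 22-month group, which leaves the batch 1 comparison, called 14 list genes higher and 10 lower. Over all tested genes that setting called 1724 higher and 1266 lower, against 769 and 321 with all mice. Leaving out mouse 3 of the 5-month group called 14 list genes higher and 11 lower, and 1729 and 1251 over all tested genes. The list calls thus rose along with those over all tested genes, and whether the lists gained more was not tested. With the mouse number as a block, 4 list genes were called (Adgrb1, Tub, Tulp1, Vtn). The plot of the pathway shows the lists beside the 10 genes.

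**Figure D5:**
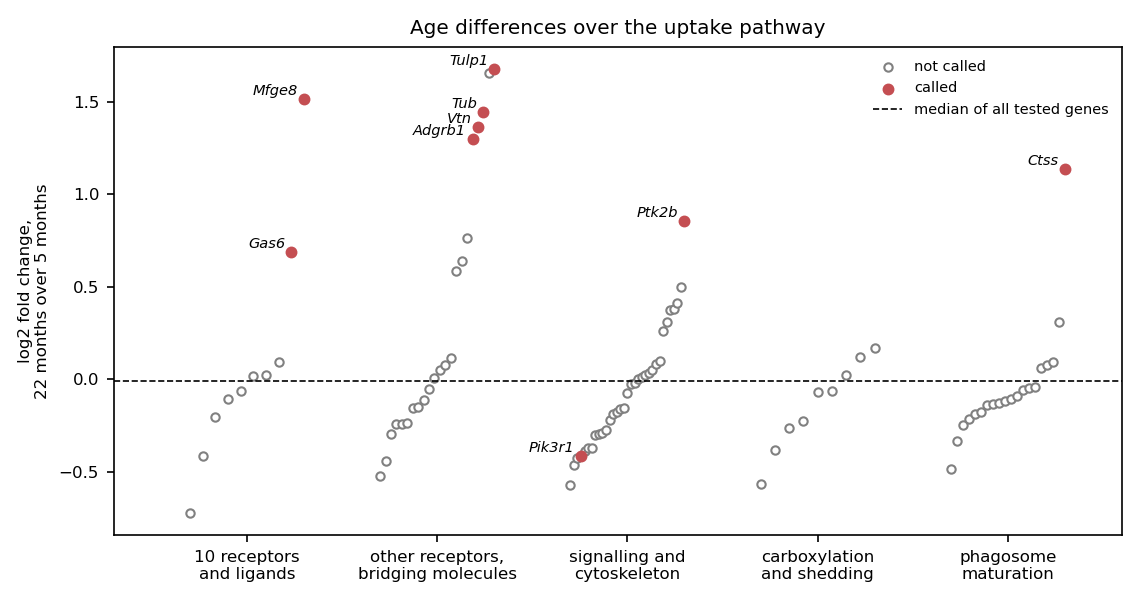
Log2 fold change of 22 over 5 months (vertical axis) for each tested gene of the 10 receptors and ligands and of 4 pathway lists, sorted within a list. Filled points are called genes and the dashed line is the median of all tested genes, and 2 of the 10 and 7 of the 84 list genes are called, all of them higher except Pik3r1.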

How the data were processed

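All values come from 12 RPE libraries. Reads were quality-checked (FastQC), trimmed (Trimmomatic), aligned to mm10 (HISAT2) and counted (featureCounts) by the authors, with versions not given in the sources used here. They deposited raw counts per gene. A ComBat-seq step by the authors produced the deposited batch-corrected table, treated as estimated counts. Dividing it by a DESeq2 size factor per library gave the deposited normalized signal.

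Entrez IDs were named with RefSeq (GRCm38.p6). For each mouse, the raw counts of its left and right eye were added. Ages were compared with edgeR 4.0.16 in R 4.3.3 (quasi-likelihood test, trimmed-mean scaling, batch and age in the model, 3 residual degrees of freedom) on genes with a mean normalized value of at least 20. The SE is the absolute fold change divided by the root of F. Log2 CPM used a prior count of 1. CPM per kb used GENCODE exon lengths. The test was checked on simulated counts with known fold changes, which held no batch difference and no shift in cell types.

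Alternatives were DESeq2 1.42.0 or limma 3.58.1, other scalings and filters, eyes as samples (limma-trend on log2 of the normalized value plus 4), single eyes or batches, each mouse left out, a replicate block, no fold threshold and the rod score. The RPE and macrophage scores, the removal of 3 libraries and the age-by-eye test were chosen after seeing the data. The 10 genes, the lists and the rule for named genes were chosen with earlier results of these data known. The rule named all 10 genes, up to 4 called genes per list (at most 2 per direction where both occurred) or else the 2 of smallest p, and 3 genes most like Mertk, Itgb5 and Gas6.

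Nothing says that mice were paired by number beyond the batch. Deviations from the group means correlated between same-numbered mice (0.769, 0.608 and 0.848), and between mice 1 and 2 of different ages in batch 1 (0.523 and 0.612). Within batch 1, the difference of mouse 1 and mouse 2 correlated across genes between the ages at 0.339.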

Additional observations from a re-analysis of the deposited data

Results flagged for a closer look

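Pros1 in the right eye of 22-month mouse 3 stood at 149 CPM, far from the other 5 libraries of that age, of which the next highest had 104 CPM. That gap was 0.72 of the range of the 6 libraries, beyond Dixon's critical value at the 95% level. Of 20 such groups examined, 10 genes at 2 ages, it was the 1 beyond that value, and chance flags about 1 in 20 if values are independent. The 6 libraries are not, as they are paired eyes of 3 mice in 2 batches, so that rate is only a guide.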

How the results depend on the processing

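The 10 genes were tested under 24 alternatives, of which the comparison within batch 2 gave a value with no test. Gas6 stayed above 0 in all 24 (0.39 to 0.85 on the log2 scale) and was called in 16 of 23. Mfge8 stayed above 0 in all 24 (1.09 to 1.73) and was called in 18 of 23. Itgav stayed below 0 in all 24 (-0.95 to -0.03) and was called in 9 of 23. These counts are not independent support, since the settings reuse the same mice and some repeat the batch 1 comparison. Several also take the eyes of a mouse as separate samples. Of the 10 genes, 2 were called, against 4 by DESeq2 on batch-corrected eyes and 4 by limma-trend (Mertk and Itgav were added), 0 without a batch term, 0 in right eyes alone, and 0 to 3 when a mouse was left out. Calls of Gas6 and Mfge8 held with the mouse number as a block, at log2 fold changes of 0.69 (adjusted p = 0.0396 by edgeR) and 1.51 (adjusted p = 0.0192 by edgeR), and the block left 2 of the 10 genes called and changed no call among them.

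Over all genes, 1090 were called (827 with the block). DESeq2 on mouse sums called 2365. Eyes as samples, with no term for the mouse, gave 2958 by edgeR, 3323 by DESeq2 on batch-corrected counts and 3221 by limma-trend. Voom on single eyes took the mouse as a random effect, with a correlation of 0.0481 between eyes of a mouse, and called 2755. The count was 2 without a batch term, 178 in left eyes, 12 in right eyes, 2952 in batch 1, 195 with the rod score, 96 with the RPE score, 665 without the 3 libraries, and 1 to 2990 when a mouse was left out. Leaving out either mouse 3 repeats the batch 1 comparison, since the batch term takes up the mouse that remains in batch 2. Models with a score took eyes as samples with no term for the mouse. The cause of these differences in count was not tested.

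Signs turned as follows. With the RPE score, Mertk was at 0.20, Tyro3 at 0.36 and Ptk2 at 0.021, and with the rod score Ptk2 was at 0.0014. With the macrophage score, Axl was at -0.47, Cd36 at -0.41 and Itgb5 at -0.11. In right eyes, Axl was at -0.030, Pros1 at 0.43, Itgb5 at -0.10 and Cd36 at -0.0060. With filterByExpr, Axl was at -5.7e-05 and Cd36 at -0.0099, with no filter Axl was at -0.0088 and Cd36 at -0.019, and without a batch term Cd36 was at -0.0021. Between the mice of batch 2, Tyro3 was at 0.09, Axl at -0.31, Cd36 at -0.22 and Ptk2 at 0.06. When a mouse was left out, Axl ran between -0.054 and 0.19, Pros1 between -0.12 and 0.0038 and Cd36 between -0.052 and 0.14. The tests had 3 mice per age and 3 residual degrees of freedom. Mertk, at -0.42 with an SE of 0.15, was not called, and Pik3r1, at the same log2 fold change with an SE of 0.08, was. The alternatives with RPE or macrophage scores and without 3 libraries were chosen after seeing the data.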

Other observations

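The eyes of a mouse differed in these genes by up to 0.83 on the log2 scale, in Pros1 of 5-month mouse 1. The right eye of 22-month mouse 1 was lower than its left eye in 9 of the 10 genes, by 0.03 (Ptk2) to 0.74 (Mertk) on the log2 scale, with Pros1 the exception at 0.04 higher. In 22-month mouse 2 the right eye was likewise lower in 9 of the 10, and in 22-month mouse 3 it was higher in 8. In the 5-month mice it was lower in 3, 4 and 5 of the 10. In 22-month mouse 3, Axl and Cd36 were higher in the right eye by 0.40 and 0.53, and Mertk by 0.09.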
